A study of Caenorhabditis elegans with 11 samples.

Results

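The genes vha-1 to vha-8 encode 8 of the subunits and subunit isoforms of the vacuolar proton pump (V-ATPase) of Caenorhabditis elegans. They were taken by identifier, in order vha-1 (WBGene00006910), vha-2 (WBGene00006911), vha-3 (WBGene00006912), vha-4 (WBGene00006913), vha-5 (WBGene00006914), vha-6 (WBGene00006915), vha-7 (WBGene00006916) and vha-8 (WBGene00006917), and make up 8 of the 46904 gene rows of each count table. All 8 had enough reads to be tested in both tables, among 12861 genes tested in mRNA and 13336 in antisense small RNA. RNA came from dissected gonads of day-one adults. The mutant group was strain RB950, labelled cup-4(ok837), with a deletion in cup-4, a gene that scavenger cells of the body cavity need for uptake, and the comparison group was the wild-type strain N2. Antisense small RNA was counted in 3 cup-4 and 3 wild-type libraries, and mRNA in 3 cup-4 libraries and 2 wild-type libraries (replicates 2 and 3). The set of genes, and the contrast of vha-6 with the other 7, were selected on values of these tables, the fold changes between genotypes in mRNA and small RNA, so the differences between genotypes of these 8 genes are described without a p-value.

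The V-ATPase is a rotary enzyme in which a cytosolic sector, V1, hydrolyses ATP and drives a ring of proteolipid subunits in the membrane sector, V0, which carries protons across the membrane. It acidifies lysosomes, endosomes and secretory vesicles in all cells, and in some worm epithelia it also sits in the plasma membrane. In the C. elegans germline it is known for acidifying the lysosomes of oocytes when sperm are present. The genes vha-1, vha-2 and vha-3 encode the c proteolipid of the ring and vha-4 its c'' form. The genes vha-5, vha-6 and vha-7 encode isoforms of the a subunit, the V0 part that holds the proton path and sets where in the cell the pump goes, and vha-8 encodes the E subunit of the V1 stalk. VHA-6 is known as the isoform of the apical membrane of the intestine, VHA-5 as that of the excretory canal and epidermis, and VHA-7 as that of epidermis and uterus.

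The gene counts summed to between 21290140 and 29559542 per mRNA library and between 14858199 and 39310540 per small RNA library. Values are CPM, counts scaled to a common library total by the TMM method, unless counts are named. The mutated gene had 1.08 ± 0.19 CPM of mRNA in cup-4 gonads (SD, n = 3) and 4.02 ± 0.82 CPM in wild-type gonads (SD, n = 2), without overlap. Germ cell and oocyte markers were abundant in every mRNA library, at a summed 15579, 15388 and 20148 CPM in cup-4 replicates 1, 2 and 3, and 12329 and 20810 CPM in wild-type replicates 2 and 3. Of 16 intestine markers, 14 had higher mRNA in every cup-4 library than in either wild-type library, as did 20.1% of all genes tested, and cup-4 replicate 1 stood apart with a summed 112712 CPM, against 19379 and 34477 CPM in cup-4 replicates 2 and 3 and 4120 and 3508 CPM in wild-type replicates 2 and 3. Fold changes without cup-4 replicate 1 are therefore given for vha-5, vha-6 and vha-7, and for vha-1. In RNA of whole gonads, fewer cells of a type and less RNA per cell cannot be told apart.

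In assembly WBcel235, the build that the submitters' processing notes call ce11, none of these genes lies on chromosome I, V or X. The c subunit genes vha-1 (chromosome III, 9781254 to 9781763) and vha-2 (chromosome III, 9782164 to 9783078) are neighbours, 400 bases apart. The third c subunit gene, vha-3 (chromosome IV, 2315460 to 2315945), lies 892 bases from another pump gene, vha-11. Of the others, vha-4 is at 7878082 to 7879316 and vha-6 at 11435210 to 11438452 on chromosome II. On chromosome IV, vha-8 is at 6791074 to 6792455, vha-5 at 8303968 to 8307369 and vha-7 at 12640462 to 12650652. RefSeq places a protein-coding gene, F35H10.10, across part of vha-5, and no gene across the other 7. Levels are not set against each other between genes, because no transcript lengths were at hand.

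The a subunit gene vha-6 had the largest difference in mRNA of the 8 genes. It had 142, 112 and 99.9 CPM in cup-4 replicates 1, 2 and 3, against 33.6 and 25.6 CPM in wild-type replicates 2 and 3. Every cup-4 library lay above both wild-type libraries, and the lowest cup-4 value was well above the highest wild-type value. The means were 118 ± 21.9 CPM in cup-4 (SD, n = 3) and 29.6 ± 5.65 CPM in wild type (SD, n = 2), a fitted 3.98-fold difference or 1.99 on the log2 scale (SE 0.26). Within batch 2 the log2 difference was 1.73 and within batch 3 it was 1.96, and without cup-4 replicate 1 the fitted value was 1.75.

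The other a subunit genes differed less. The mRNA of vha-5 was scarce, with counts of 130, 99 and 83 in cup-4 replicates 1, 2 and 3 and 56 and 66 in wild-type replicates 2 and 3. In CPM these were 6.78, 3.14 and 3.56 in cup-4 and 2.20 and 2.67 in wild type, so the genotypes did not overlap but came close. The log2 fold change of vha-5 was 0.88 (SE 0.50), and 0.38 without cup-4 replicate 1, which held the highest value. F35H10.10, which overlaps vha-5, had 15.9, 4.15 and 12.3 CPM in cup-4 and 4.44 and 4.69 CPM in wild type. Since the use of strand in counting is not stated, reads of the overlap may have been given to either gene or to neither.

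The mRNA of vha-7 was 163, 157 and 188 CPM in cup-4 replicates 1, 2 and 3, against 99.1 and 164 CPM in wild-type replicates 2 and 3. The wild-type libraries were farther apart than the genotype means, and wild-type replicate 3 lay inside the cup-4 range. The log2 fold change was 0.36 (SE 0.28). Leaving out wild-type replicate 2 gave 0.044 in its place, and leaving out wild-type replicate 3 gave 0.71. Without cup-4 replicate 1 it was 0.31. The low wild-type replicate 2 was also the library with the lowest sum of germ cell and oocyte markers, and the part of this in the value of vha-7 was not tested. The isoform unc-32, the other a subunit gene of the worm, also had its lowest value in wild-type replicate 2, with 151, 155 and 174 CPM in cup-4 and 110 and 192 CPM in wild type.

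**Figure D1:**
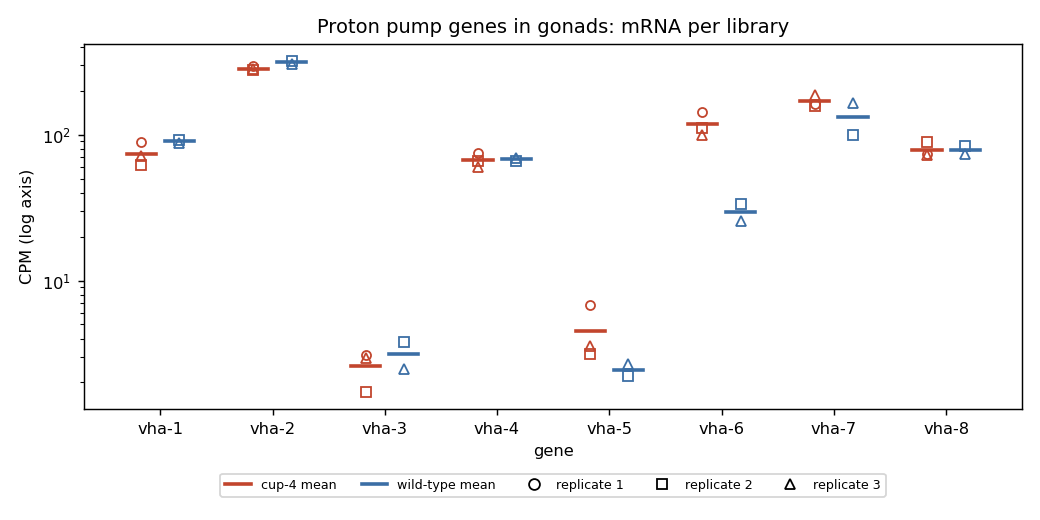
CPM of mRNA (log axis) of vha-1 to vha-8 in each gonad library, cup-4 in red on the left and wild type in blue on the right of each gene; symbols mark the replicate and bars the mean. The cup-4 points of vha-6 lie between 99.9 and 142 CPM, above the wild-type points at 25.6 and 33.6 CPM, while those of vha-1, vha-3, vha-4, vha-7 and vha-8 overlap between genotypes.

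Of the reads of the 4 a subunit genes together, vha-6 held 30.8%, 26.1% and 21.4% in cup-4 replicates 1, 2 and 3 (95% Wilson intervals 29.8% to 31.7%, 25.4% to 26.9% and 20.7% to 22.2%). In wild-type replicates 2 and 3 it held 13.7% and 6.67% (12.9% to 14.6% and 6.19% to 7.19%). The intervals hold for counting error alone, because PCR copies were not told apart from molecules. The share was 26.1% ± 4.66 in cup-4 (SD, n = 3) and 10.2% ± 4.99 in wild type (SD, n = 2), without overlap. The share rests on the vha-6 mRNA values that chose the contrast and is given as a description. It is a share of reads, not corrected for length, so it serves to compare libraries and not isoforms.

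The mRNA of the c subunit genes vha-1 to vha-4 had log2 fold changes from -0.28 to -0.014. For vha-2, the values were 294, 277 and 282 CPM in cup-4 replicates 1, 2 and 3 and 323 and 306 CPM in wild-type replicates 2 and 3. All cup-4 values were lower than both wild-type values, by a small margin, with a log2 fold change of -0.14 (SE 0.21). For vha-1, the values were 88.99, 62.0 and 70.9 CPM in cup-4 and 92.1 and 88.0 CPM in wild type, which overlap through cup-4 replicate 1. Its log2 fold change was -0.28 (SE 0.22), and -0.52 without cup-4 replicate 1. For vha-4, the c'' gene, the values were 74.7, 66.4 and 60.6 CPM in cup-4 and 66.4 and 69.3 CPM in wild type, with wild type inside the cup-4 range and a log2 fold change of -0.014 (SE 0.19).

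The counts of vha-3 were only 59, 54 and 69 in cup-4 replicates 1, 2 and 3 and 96 and 61 in wild-type replicates 2 and 3. At 3.08, 1.71 and 2.96 CPM in cup-4 and 3.78 and 2.47 CPM in wild type the genotypes overlapped, and the log2 fold change was -0.28 (SE 0.48). The proteins of vha-2 and vha-3 are known to be nearly identical, and some reads may fit both genes. Reads aligned to more than 1 place made up 5.54% to 12.97% of the mRNA reads and were kept out of the gene counts, so the level of vha-3 mRNA is uncertain. The E subunit gene vha-8, the only V1 gene of the 8, had 73.7, 89.1 and 73.0 CPM in cup-4 and 83.3 and 74.3 CPM in wild type, with wild type inside the cup-4 range and a log2 fold change of -0.0038 (SE 0.19).

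Set against the other 7 genes, vha-6 differed by 2.01 on the log2 scale in mRNA (its fold change minus their median). Summed over the other 7 genes, mRNA was 704, 656 and 681 CPM in cup-4 replicates 1, 2 and 3, and 669 and 707 CPM in wild-type replicates 2 and 3. This sum was 681 ± 23.9 CPM in cup-4 (SD, n = 3) and 688 ± 26.8 CPM in wild type (SD, n = 2), and the genotypes overlapped. The median log2 fold change of the 8 genes was -0.0088, beside 0.16 for all genes tested. In edgeR's quasi-likelihood test, 0 of the 8 genes had an adjusted p under 0.05, as did 0% of all genes. At an unadjusted p under 0.05 there was 1 of 8, vha-6, where 17.2% of all genes had one. With DESeq2 1 of 8 had an adjusted p under 0.05 (9.1% of all genes), as did 1 of 8 in the fit with batch as a replicate block (1.55% of all genes) and 1 of 8 without a filter on low counts (1.49% of all genes). That gene was vha-6 in each. The CPM did not overlap between genotypes for 2 genes with higher cup-4 values, vha-5 and vha-6, and for vha-2 with lower ones, where 20.1% and 17.8% of all genes did so. Nothing is drawn from these counts, because this contrast was known when the genes were chosen.

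Markers of several tissues outside the germline had higher mRNA in cup-4 gonads beside vha-6. For the intestine, of the 16 markers of the list, 16 had a fold change above 0, with a median of 2.22 on the log2 scale and a range of 0.64 to 4.20, and none was at 0 in all libraries. Over all genes, 7644 of 12861 had a fold change above 0, with a median of 0.16. The aspartic protease gene asp-1, for example, had 658, 586 and 495 CPM in cup-4 replicates 1, 2 and 3, against 189 and 139 CPM in wild-type replicates 2 and 3. Much of the summed marker mRNA came from the yolk protein genes vit-2, vit-5 and vit-6. The 13 markers other than these summed to 1787, 1322 and 1139 CPM in cup-4 replicates 1, 2 and 3, and to 450.3 and 263 CPM in wild-type replicates 2 and 3. Most of each sum came from asp-1 and cpr-1, the latter with 569, 402 and 341 CPM in cup-4 and 143 and 60.4 CPM in wild type. The log2 fold changes of the 13 markers ran from 0.64 for elt-2 to 4.06 for ifo-1.

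Per 1000 CPM of these 13 markers, vha-6 mRNA was 79.7, 84.5 and 87.7 CPM in cup-4 replicates 1, 2 and 3, and 74.7 and 97.6 CPM in wild-type replicates 2 and 3. The wild-type values lay on both sides of the cup-4 values, at 83.9 ± 4.04 in cup-4 (SD, n = 3) and 86.1 ± 16.2 in wild type (SD, n = 2). Leaving the yolk genes out of this ratio was decided after the values were seen. With them kept in, the 16 markers summed to 112712, 19379 and 34477 CPM in cup-4 and 4120 and 3508 CPM in wild type. Relative to that sum, vha-6 mRNA was lower in every cup-4 library than in both wild-type libraries. The ratio to the 13 markers rests mainly on asp-1 and cpr-1, and asp-1 is among the genes closest in profile to vha-6. Whether intestinal RNA in the dissected samples has a part in the vha-6 value was not tested beyond these values. The 4 pharynx markers, all with a fold change above 0 (median log2 2.00), summed to 217, 63.4 and 30.99 CPM in cup-4 replicates 1, 2 and 3 and 11.8 and 21.4 CPM in wild-type replicates 2 and 3, without overlap. The 8 body wall muscle markers had a median of 1.92 on the log2 scale, also with all above 0, and their sums did not overlap either. The part of these tissues in the vha-6 value was not tested. The list of 4 excretory cell markers, a tissue of vha-5, summed to 18.5, 9.66 and 7.60 CPM in cup-4 and 9.01 and 6.67 CPM in wild type, with its highest value in the library where vha-5 was highest. For the epidermis, 8 hypodermis markers summed to 748, 520 and 688 CPM in cup-4 and 658 and 149.9 CPM in wild type. Most of each sum was col-19, with 671, 507 and 648 CPM in cup-4 and 638 and 145 CPM in wild type. The lowest value of vha-5 was in wild-type replicate 2. The part of either tissue in the vha-5 value was not tested. All 4 hypodermis markers with enough reads to be tested had a fold change above 0 (median log2 1.38).

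**Figure D2:**
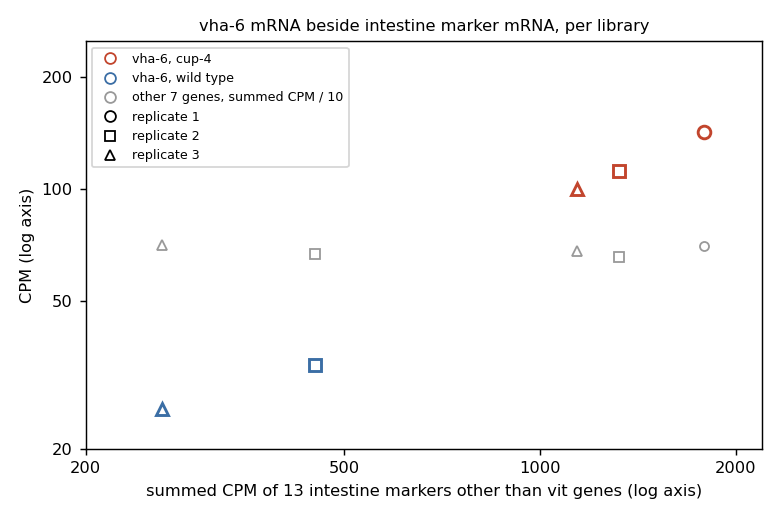
CPM of vha-6 mRNA (log axis) against the summed CPM of 13 intestine markers without yolk protein genes (log axis), 1 coloured point per library, red for cup-4 and blue for wild type; grey points are the summed CPM of the other 7 genes divided by 10. The cup-4 libraries lie at 1139 to 1787 CPM of markers and the wild-type libraries at 263 and 450.3 CPM, with vha-6 ordered the same way in all 5 and the grey points level. Most of each marker sum is asp-1 and cpr-1.

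Antisense small RNA against these genes is described next. In the C. elegans germline, RNA-dependent RNA polymerases make short RNAs antisense to mRNA, which Argonaute proteins bind and use either to silence a gene or to license its expression. The log2 fold changes of the 8 genes lay between -0.24 for vha-5 and 0.65 for vha-6. In vha-7 the values were 68.8, 71.5 and 70.8 CPM in cup-4 replicates 1, 2 and 3 and 75.5, 72.2 and 69.1 CPM in wild-type replicates 1, 2 and 3. The genotypes overlapped, with a log2 fold change of -0.038 (SE 0.069).

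The antisense counts of vha-6 were 47, 40 and 35 in cup-4 replicates 1, 2 and 3 and 31, 53 and 30 in wild-type replicates 1, 2 and 3. In CPM they were 2.74, 2.60 and 1.47 in cup-4 and 1.68, 1.33 and 1.33 in wild type, with cup-4 replicate 3 inside the wild-type range and the other cup-4 libraries above it. The log2 fold change was 0.65 (SE 0.33). It was the largest of the 8 genes, but cup-4 exceeded wild type by 0.70 and 0.97 on the log2 scale within batches 1 and 2 and by 0.15 within batch 3. Set against the median of the other 7 genes it was 0.68 higher, and the spread of this difference between libraries of a genotype was 0.43 (SD, log2). The 16 intestine markers summed to 85.6, 64.4 and 52.0 CPM of antisense small RNA in cup-4, against 41.6, 36.8 and 31.3 CPM in wild type. Of these, 8 had enough reads to be tested, all with a fold change above 0, as had 6762 of all 13336 genes, and their part in the vha-6 value was not tested. The antisense counts of vha-5, the third a subunit gene, were 18, 6 and 18 in cup-4 and 11, 45 and 19 in wild type, and its log2 fold change of -0.24 (SE 0.44) carries little precision at this depth.

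Among the c subunit genes, vha-1 had 12.4, 12.0 and 12.5 CPM of antisense small RNA in cup-4 replicates 1, 2 and 3 and 14.8, 13.2 and 13.4 CPM in wild-type replicates 1, 2 and 3. All cup-4 values were lower, with a log2 fold change of -0.17 (SE 0.12). In its neighbour vha-2 all cup-4 values were higher, at 20.8, 20.7 and 23.0 CPM in cup-4 and 19.2, 20.0 and 17.7 CPM in wild type, with a log2 fold change of 0.18 (SE 0.11). In vha-4 they were higher too, at 33.9, 34.1 and 33.9 CPM in cup-4 and 32.7, 32.9 and 29.7 CPM in wild type, with a log2 fold change of 0.096 (SE 0.085). The last 2 genes overlapped between genotypes: vha-3 with 34.3, 32.8 and 33.7 CPM in cup-4 and 38.4, 33.9 and 31.6 CPM in wild type, and vha-8 with 16.8, 18.7 and 17.6 CPM in cup-4 and 18.4, 18.3 and 16.7 CPM in wild type.

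Across the 8 genes the median log2 fold change of antisense small RNA was -0.025, beside 0.0065 for all genes tested. In edgeR's quasi-likelihood test 0 of the 8 had an adjusted p under 0.05, where 1.12% of all genes did, and 0 had an unadjusted p under 0.05, where 22.8% of all genes did. DESeq2 also gave 0 of 8, beside 10.7% of all genes, as did the replicate block (1.97% of all genes) and the fit without a filter (5.2% of all genes). Values did not overlap in 2 genes with higher cup-4 levels and in 1 gene with lower ones, where 15.8% and 14.8% of all genes did so. As for mRNA, nothing is drawn from these counts, because the contrast was known when the genes were chosen.

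**Figure D3:**
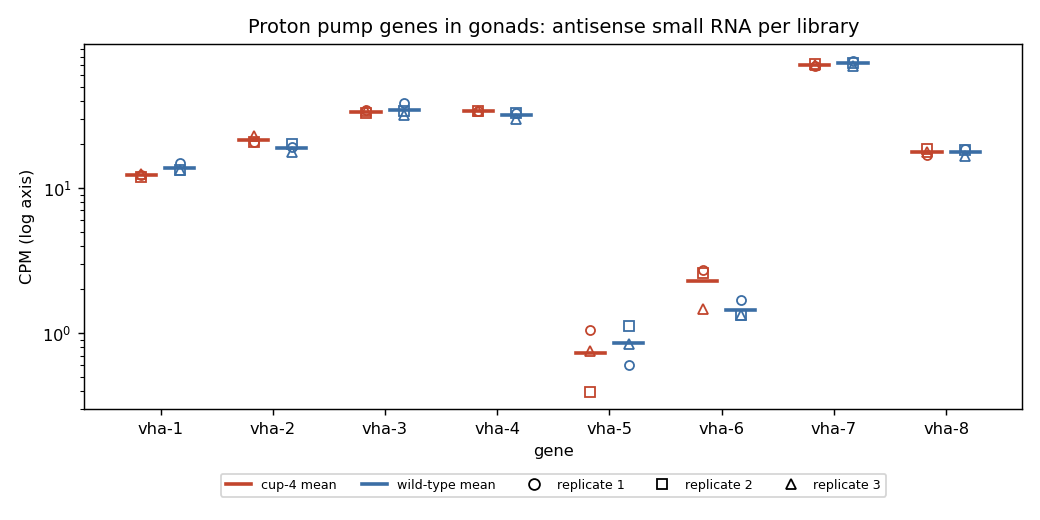
CPM of antisense small RNA (log axis) of vha-1 to vha-8 in each gonad library, cup-4 in red on the left and wild type in blue on the right of each gene; symbols mark the replicate and bars the mean. In vha-6, 2 cup-4 points at 2.60 and 2.74 CPM lie above the wild-type points at 1.33 to 1.68 CPM and the third, at 1.47 CPM, lies among them.

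To see how heavily each gene is targeted for its expression, the CPM of antisense small RNA was divided by the CPM of mRNA of the same gene, a ratio in which the length of the gene enters both terms. For the median of the 10163 genes tested in both assays, this ratio was 0.975 in cup-4 and 1.01 in wild type. The ratio of vha-6 was the lowest of the 8, at 0.0193 in cup-4 and 0.0488 in wild type, below all but 1.69% of genes in cup-4 and all but 3.38% in wild type. By library it was 0.0193, 0.0233 and 0.0148 in cup-4 replicates 1, 2 and 3 and 0.0395 and 0.0519 in wild-type replicates 2 and 3, without overlap. The vha-6 mRNA on which the contrast was chosen is the divisor, so this difference between genotypes is a description. Antisense CPM of vha-6 alone overlapped between genotypes. Ratios without overlap were not counted over all genes. A low ratio was not particular to vha-6 among pump genes. Outside the 8 genes, the B subunit gene vha-12 had a ratio of 0.0302 in cup-4 and 0.0415 in wild type. In wild type this was below the ratio of vha-6.

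In 6 of the other 7 genes the ratio was below that of the median gene as well, from 0.0755 for vha-2 to 0.505 for vha-4 in cup-4, and from 0.0603 for vha-2 to 0.549 for vha-7 in wild type. For vha-5 the ratio was 0.163 in cup-4 and 0.351 in wild type, on few reads. The exception was vha-3, at 13.01 in cup-4 and 11.1 in wild type, above 89.6% of genes in cup-4 and 88.1% in wild type. Of the antisense reads of the 3 c subunit genes, vha-3 held 49.9% ± 1.07 in cup-4 and 51.3% ± 1.49 in wild type (SD, n = 3 each), but of their mRNA reads only 0.710% ± 0.181 in cup-4 (SD, n = 3) and 0.762% ± 0.199 in wild type (SD, n = 2). The small RNA table lists 0 reads with several alignments, unlike the mRNA table, so reads shared by vha-2 and vha-3 may have been handled differently in the 2 assays. The ratio of vha-3 is uncertain for that reason.

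**Figure D4:**
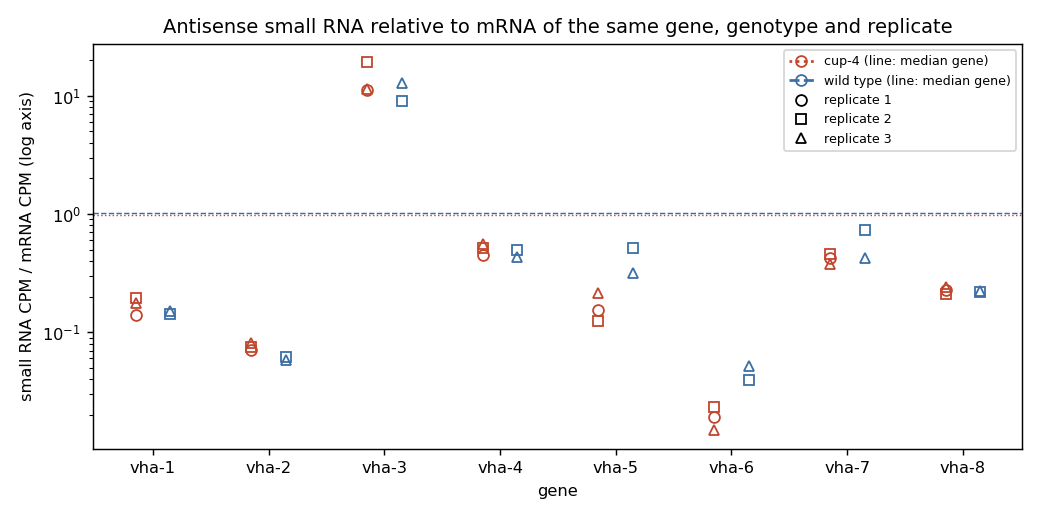
CPM of antisense small RNA divided by CPM of mRNA (log axis) for vha-1 to vha-8 in the libraries of the same genotype and replicate, cup-4 in red on the left and wild type in blue on the right of each gene; the red dotted and blue dashed lines are the medians of 10163 genes, 0.975 in cup-4 and 1.01 in wild type. The points of vha-6 are the lowest, and lower in cup-4 (0.0148 to 0.0233) than in wild type (0.0395 and 0.0519), while those of vha-3 are the only ones above the lines. The divisor of vha-6 is the mRNA on which its contrast was chosen.

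The rest of the pump was examined as a list of 13 further genes: the V1 subunit genes vha-9 to vha-15 and vha-18, the V0 subunit genes vha-16, vha-17 and unc-32, and the accessory subunit genes vha-19 and vha-20. All 13 were tested in both assays. In mRNA, 0 of the 13 had an adjusted p under 0.05 in edgeR's quasi-likelihood test (0% of all genes). DESeq2 (9.1% of all genes) and the fit with the replicate block (1.55% of all genes) also gave 0. The median log2 fold change was 0.085, with 7 above and 6 below 0, beside 0.16 for all genes, and the range of -0.70 to 0.82 did not reach the 1.99 of vha-6. The summed mRNA of the 13 genes was 1327, 1338 and 1373 CPM in cup-4 replicates 1, 2 and 3 and 1126 and 1388 CPM in wild-type replicates 2 and 3, which overlap.

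At an unadjusted p under 0.05 there were 4 of the 13, where 17.2% of all genes had one. Without wild-type replicate 2 this count was smaller, in a fit that holds only 1 wild-type library. The genes with higher values were vha-20 and vha-15. The accessory subunit gene vha-20 had 39.9, 37.8 and 29.1 CPM in cup-4 replicates 1, 2 and 3 and 19.7 and 20.5 CPM in wild-type replicates 2 and 3 (log2 fold change 0.82, SE 0.22, edgeR adjusted p 0.165). The H subunit gene vha-15, a V1 part that regulates the enzyme, had 53.9, 43.3 and 42.0 CPM in cup-4 and 30.8 and 30.1 CPM in wild type (log2 fold change 0.61, SE 0.20, adjusted p 0.211). In both genes all cup-4 libraries lay above both wild-type libraries, as they did for vha-6, but with smaller differences. Of the 13 genes, 4 had this order, with vha-12 and vha-19 the others, where 20.1% of all genes had it. The values of vha-19 were 60.6, 56.5 and 58.3 CPM in cup-4 and 39.5 and 48.7 CPM in wild type (log2 fold change 0.41, SE 0.19, edgeR adjusted p 0.337).

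The genes with lower values were vha-9 and vha-17. The F subunit gene vha-9, part of the rotor shaft, had 25.4, 27.1 and 28.8 CPM in cup-4 and 48.3 and 39.9 CPM in wild type (log2 fold change -0.70, SE 0.19, edgeR adjusted p 0.166). The e subunit gene vha-17, a small V0 part, had 23.9, 17.5 and 20.0 CPM in cup-4 and 33.4 and 28.6 CPM in wild type (log2 fold change -0.60, SE 0.22, adjusted p 0.256). In these 2 genes of the 13, every cup-4 library was below both wild-type libraries, as in 17.8% of all genes. The protein-coding gene nspg-11 overlaps vha-17, and with 21.1, 16.6 and 7.68 CPM in cup-4 and 7.71 and 3.72 CPM in wild type it was ordered the other way.

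The catalytic A subunit gene vha-13 had 418, 427 and 448 CPM in cup-4 and 308 and 426 CPM in wild type. Its log2 fold change of 0.23 had an SE of 0.25 (edgeR adjusted p 0.697), and the genotypes overlapped. The B subunit gene vha-12, with 151, 135 and 134 CPM in cup-4 and 114 and 122.3 CPM in wild type, had one of 0.25, with an SE of 0.20 (adjusted p 0.585). The E subunit partner in the V1 stalk, the G subunit gene vha-10, had 44.9, 51.9 and 45.8 CPM in cup-4 and 61.1 and 49.97 CPM in wild type (log2 fold change -0.22, SE 0.19, adjusted p 0.610). The C subunit gene vha-11, the neighbour of vha-3, had 64.4, 71.9 and 64.2 CPM in cup-4 and 52.0 and 68.0 CPM in wild type, and its log2 fold change was 0.16 (SE 0.20, adjusted p 0.753).

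In antisense small RNA, 0 of the 13 had an adjusted p under 0.05 in edgeR's test, where 1.12% of all genes did, and 1 had an unadjusted p under 0.05, where 22.8% did. That gene was unc-32, the a subunit isoform known from neurons and many other tissues, with 195, 184 and 192 CPM in cup-4 replicates 1, 2 and 3 and 234, 226 and 213 CPM in wild-type replicates 1, 2 and 3. All cup-4 values were lower, by -0.24 on the log2 scale (SE 0.073, edgeR adjusted p 0.135). With DESeq2 unc-32 was the 1 gene of the 13 that passed, beside 10.7% of all genes. The other 12 genes overlapped between genotypes, and the median log2 fold change of the list was 0.025. Of the antisense reads of the 4 a subunit genes, vha-6 held 0.862% ± 0.266 in cup-4 and 0.484% ± 0.0511 in wild type (SD, n = 3 each), and unc-32 held 72.2% ± 0.898 in cup-4 and 75.0% ± 0.148 in wild type.

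**Figure D5:**
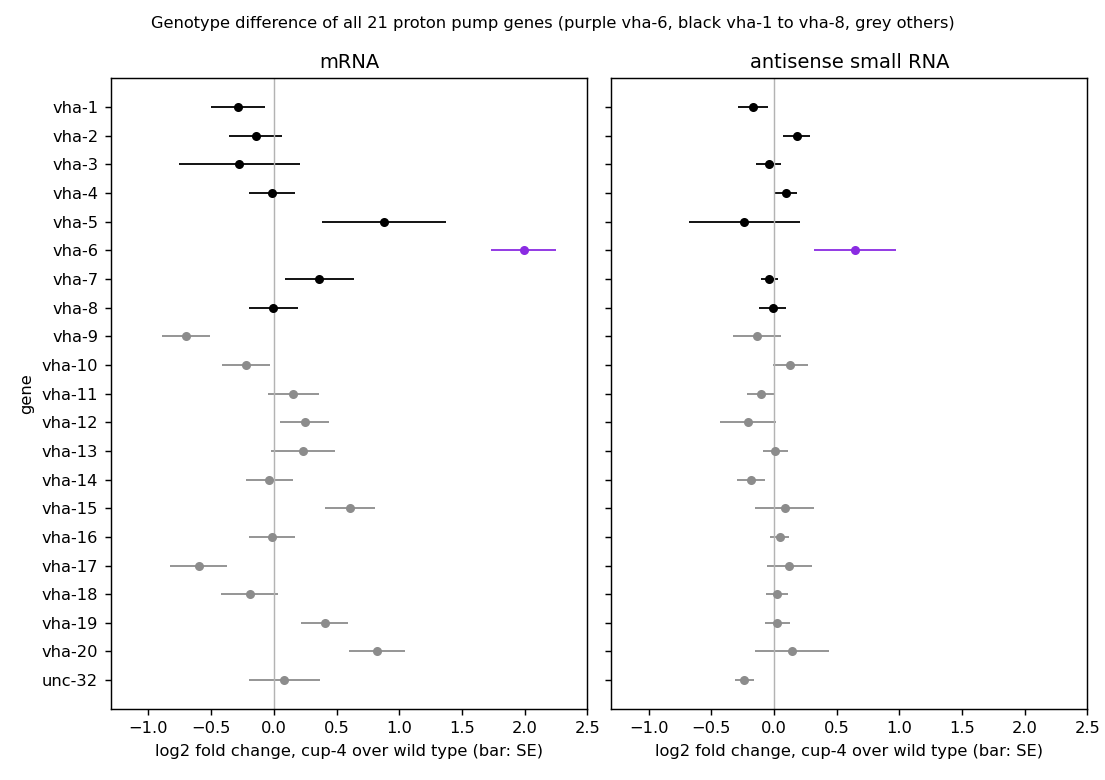
Log2 fold change of cup-4 over wild type with its SE (bar) for the 21 pump genes, mRNA in the left panel and antisense small RNA in the right, on the same axis. In mRNA vha-6 (purple) lies at 1.99 and the other 20 genes lie between -0.70 and 0.88; in small RNA vha-6 lies at 0.65 and the others between -0.24 and 0.18.

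Lysosomal genes, whose organelle the pump acidifies, were counted as a list of 16, of which 15 were tested in mRNA. In edgeR's test 0 had an adjusted p under 0.05 (0% of all genes), and 4 with higher and 1 with lower values had an unadjusted p under 0.05 (17.2% of all genes). All cup-4 libraries lay above both wild-type libraries in 4 of the 15 genes (20.1% of all genes). They lay below both in 6 of the 15 (17.8% of all genes). The median log2 fold change was -0.11, beside 0.16 for all genes. The cathepsin L gene cpl-1 had 679, 495 and 320 CPM in cup-4 replicates 1, 2 and 3 and 176 and 102 CPM in wild-type replicates 2 and 3 (log2 fold change 1.84, SE 0.43, edgeR adjusted p 0.147). The acid deoxyribonuclease gene nuc-1 had 270, 165 and 128 CPM in cup-4 and 63.6 and 29.6 CPM in wild type (log2 fold change 2.01, SE 0.48, adjusted p 0.148). The cystine transporter gene ctns-1 and the lysosomal channel gene cup-5, the other genes of the list with the highest CPM, had log2 fold changes of -0.45 (SE 0.20, edgeR adjusted p 0.317) and -0.17 (SE 0.23, adjusted p 0.775). The remaining genes with an unadjusted p under 0.05, named after their values were seen, were ncr-1, hlh-30 and lmtr-3. The cholesterol transporter gene ncr-1 had the largest fold change of the list, 2.81 on the log2 scale (SE 0.80, edgeR adjusted p 0.182), with 95.5, 16.9 and 82.1 CPM in cup-4 replicates 1, 2 and 3 and 5.86 and 12.6 CPM in wild-type replicates 2 and 3. The log2 fold change was 0.89 (SE 0.33, adjusted p 0.253) for hlh-30, a transcription factor gene of lysosome biogenesis, and -0.51 (SE 0.18, adjusted p 0.239) for lmtr-3.

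The genes with mRNA profiles most like that of vha-6 were sought among 6096 genes with a mean of at least 10 CPM, by the root mean square difference of centred log2(CPM + 1) over the 5 mRNA libraries. They were atn-1 at 0.085, asp-1 at 0.088, ndg-4 at 0.11 and ads-1 at 0.13. The alpha-actinin gene atn-1 had 45.3, 30.2 and 28.8 CPM in cup-4 replicates 1, 2 and 3 and 10.2 and 7.24 CPM in wild-type replicates 2 and 3, the same order of libraries as vha-6. Body wall muscle markers, from a tissue known to contain alpha-actinin, summed to 4267, 1043 and 2670 CPM in cup-4 replicates 1, 2 and 3 and 969 and 572 CPM in wild-type replicates 2 and 3, with 8 of 8 having a fold change above 0, and their part in the profile of atn-1 was not tested. The gene asp-1 was itself on the list of intestine markers, whereas ads-1 encodes an enzyme of ether lipid synthesis. The closest to the mean profile of the other 7 pump genes was dnj-20, a chaperone gene, at 0.036, with 20.9, 16.4 and 19.1 CPM in cup-4 and 17.3 and 18.4 CPM in wild type. It was followed by erd-2.1, a receptor gene of endoplasmic reticulum retrieval, at 0.045, by C56C10.9 at 0.045 and by C50E3.11 at 0.055. With 5 libraries these are descriptions of profiles and carry no test.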

How the data were processed

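The deposited values are raw read counts per gene, 1 column per library, neither normalized nor pooled. Small RNA reads were counted antisense to genes, per the labels. The tools HISAT2, HTSeq, cutadapt and the genome ce11 are named in the submitters' processing notes, and versions and settings are not given in the sources used here. The 5 summary rows of each table (13.4% to 23.8% of mRNA reads, 44.0% to 49.1% of small RNA reads) entered neither library sizes nor tests. Symbols matched 44017 of 46904 identifiers.

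Counts were tested in R 4.3.3 with edgeR 4.0.16 (quasi-likelihood, robust, TMM, filterByExpr, Benjamini-Hochberg over all genes, threshold 0.05), by genotype within each assay. SE is the size of the log2 fold change over the root of F. The test was tried on simulated data. Alternatives were RLE and total-count scaling, DESeq2 1.42.0, no filter, the replicate block, batches 2 and 3, and leaving out each replicate.

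The series calls its 3 replicates biological, and the replicate number equals the batch number of the labels, which pairs the libraries. Deviations from genotype means of same-batch libraries correlated at 0.12, 0.10 and 0.17 in small RNA batches 1, 2 and 3, and at -0.12 and 0.54 in mRNA batches 2 and 3. Replicates always differed by more than counting noise (lowest chi-square 19.8 per degree of freedom).

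The genes named are vha-1 to vha-8, the 13 other pump genes, cup-4, the 4 genes closest in profile to vha-6 and to the other 7, and examples of marker and lysosome lists. The genes and lists were chosen with earlier results of these data known. Levels per length and promoter motifs were planned but not analysed here.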

Additional observations from a re-analysis of the deposited data

How the results depend on the processing

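The excess of vha-6 over the median of the other 7 genes kept its direction in every alternative. When single replicates were left out it was 1.89 to 2.16 in mRNA and 0.51 to 0.93 in antisense small RNA (log2). In the other alternatives it was 1.93 to 2.00 and 0.58 to 0.69. Because the contrast was chosen on values of these same tables, the kept direction is a description only. In mRNA the fit of batches 2 and 3 is the same as that without cup-4 replicate 1, and gave the 1.93. Of 184 values of single genes, in which that fit is counted 2 times, 164 moved by less than the spread between replicates. The sign of the mRNA difference flipped for vha-3, vha-4 and vha-8 and that of the small RNA difference for vha-3, vha-5, vha-7 and vha-8 in at least 1 alternative. Over these, the widest range was that of vha-5 in small RNA, -0.75 to 0.044. Total-count scaling moved the small RNA median of all genes from 0.0065 to 0.11. In mRNA the count of genes past the threshold was 0 in edgeR, with 2209 at an unadjusted p under 0.05. It was also 0 in each fit without 1 cup-4 replicate. With DESeq2 it was 1057, without a filter 313 and with the replicate block 199. The last 3 counts include vha-6, from which nothing is drawn, because its contrast was known when the genes were chosen. In small RNA the count of genes past the threshold was 149. It was 11 to 406 without 1 replicate, the lowest without cup-4 replicate 2 and the highest without wild-type replicate 1. It was 1227 with DESeq2, 1651 without a filter, 403 for batches 2 and 3 alone and 263 with the replicate block. Of the 13 other pump genes 0 passed in mRNA in any alternative and 1 in small RNA with DESeq2 and 0 in the others, the replicate block included. The replicate block changed no other call of a pump gene. The causes of these shifts were not tested. Depth limits vha-3 and vha-5 in mRNA and vha-5 and vha-6 in small RNA.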
